A study of Mus musculus with 9 samples.

Results

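Long noncoding RNAs are transcripts that act without being translated. The 10 examined here were chosen by name, as the rows of the count table whose symbol is Snhg11, Snhg1, Snhg12, Snhg15, Gas5, Neat1, Malat1, Meg3, H19 or Mhrt, and all 10 were found among its 54532 genes. Snhg11 led to the choice because it was higher in the injured hearts, so its values against sham are given as a description without a test. Total RNA was sequenced from hearts of wild-type male C57BL/6J mice of 8 to 10 weeks, in 3 groups of 3 mice. In the MIRI group (myocardial ischemia-reperfusion injury) the left anterior descending coronary artery was tied for 30 min and the heart reperfused for 24 hrs. In the sham group the thread was passed under the artery and not tied. The GXNI group had the same injury and received 9 mL/kg of Guanxinning injection, a preparation of Danshen and Chuanxiong, into the tail vein within 10 min of ischemia, where the other groups received saline. The labels call the cell type cardiomyocytes and the tissue heart. All 10 genes of each list of fibroblast, endothelial, and macrophage and monocyte markers had reads in every group, so the libraries held RNA of whole heart tissue.

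Snhg11, Snhg1, Snhg12, Snhg15 and Gas5 belong to 1 family, the small nucleolar RNA (snoRNA) host genes. The introns of such genes release snoRNAs, which guide the chemical modification of ribosomal RNA, while the spliced host transcript is often short-lived. Gas5 is also known as a decoy that binds the glucocorticoid receptor. Neat1 and Malat1 stay in the nucleus, where Neat1 is the scaffold of paraspeckles and Malat1 collects in nuclear speckles beside splicing factors. Meg3 and H19 are imprinted RNAs transcribed from the maternal allele, and H19, abundant in fetal tissue, carries the microRNA Mir675. Mhrt is a heart RNA transcribed antisense to Myh7 between the myosin heavy chain genes Myh7 and Myh6, and is known to bind the chromatin remodeler Brg1.

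The starts of the host genes are shown because Snhg1, Snhg12, Snhg15 and Gas5 varied together between hearts while Snhg11 did not, and the start of Meg3 is shown because it holds the same element as those of Snhg15 and Gas5. RefSeq promoters on GRCm38.p6 were matched for 8 of the 10 members, and Neat1 and H19 had none. The sequences run 5′ to 3′ on the strand of the gene over 150 bases, up to 50 bases past the start. Capitals mark a cAMP response element (CRE, TGACGTCA), an E-box, a TATA box on the strand of the gene or a pyrimidine run within 10 bases of the start (a cytosine followed by 5 or more pyrimidines). The CRE, the E-box and the AP-1 site were searched on both strands over the full 300 bases of each promoter.
Snhg11, chr2:158375613-158375762: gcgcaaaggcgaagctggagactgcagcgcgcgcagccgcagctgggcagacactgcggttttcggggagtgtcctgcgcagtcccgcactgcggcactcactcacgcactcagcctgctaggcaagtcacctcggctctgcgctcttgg
Snhg1, chr19:8723387-8723536: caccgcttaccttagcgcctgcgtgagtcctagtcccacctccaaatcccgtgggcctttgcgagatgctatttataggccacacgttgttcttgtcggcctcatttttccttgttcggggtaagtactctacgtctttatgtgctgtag
Snhg12, chr4:132308578-132308727: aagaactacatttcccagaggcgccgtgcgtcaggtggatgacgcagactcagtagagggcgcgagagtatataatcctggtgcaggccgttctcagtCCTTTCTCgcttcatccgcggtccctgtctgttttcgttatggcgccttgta
Snhg15, chr11:6528711-6528860: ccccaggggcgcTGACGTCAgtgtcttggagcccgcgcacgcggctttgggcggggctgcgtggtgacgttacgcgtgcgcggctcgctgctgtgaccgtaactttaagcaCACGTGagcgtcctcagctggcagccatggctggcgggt
Gas5, chr1:161035066-161035215: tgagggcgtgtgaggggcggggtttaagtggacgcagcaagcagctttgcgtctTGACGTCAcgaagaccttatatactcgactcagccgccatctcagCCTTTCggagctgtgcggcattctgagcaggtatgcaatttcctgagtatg
Meg3, chr12:109540896-109541045: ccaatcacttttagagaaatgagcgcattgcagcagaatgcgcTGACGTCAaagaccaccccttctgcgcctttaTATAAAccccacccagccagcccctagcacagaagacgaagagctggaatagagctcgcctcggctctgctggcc

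The CRE was present in the promoters of Snhg15, Gas5 and Meg3, and in 588 of all 32851 RefSeq promoters of the same length (1.79%). The E-box, read as CACGTG, was found for Snhg15 and in 7.15% of all promoters. The TATA box, read as TATAAA, was found for Meg3 and in 8.32%, and the pyrimidine run for Gas5 and Snhg12 and in 19.2%. The AP-1 site, read as TGACTCA and held by 5.20% of all promoters, was not among the letters of these 6 windows. Of the 4 host genes that varied together, Snhg1 held none of the elements searched and Snhg12 held no CRE. Over the 9 hearts the log2 CPM of Meg3 had Pearson's r = −0.90 with Snhg15 and −0.69 with Gas5. Whether the CRE has a part in these values was not tested. Gas5 and Meg3 each had a second RefSeq start, and the start that holds the CRE is printed.

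The libraries held 17119454 to 22811295 counted reads. The first principal component took 66.7% of the variance and placed MIRI 1, MIRI 3 and GXNI 3 far from the sham hearts, and MIRI 2 and GXNI 1 near them. MIRI 2 was nearest to GXNI 1 (Spearman's rho 0.982 across genes) and had a rho of 0.979 with its nearest sham heart, whereas GXNI 3 was nearest to MIRI 3 (0.987) and had 0.907 with its nearest sham heart. Every injured heart was in fact nearest to a heart of another label. GXNI 1 was nearest to sham 1 (0.984), GXNI 2 to MIRI 1 (0.980), and MIRI 1 and MIRI 3 to GXNI 3. Nearness alone therefore does not single out MIRI 2 and GXNI 3. On the first component MIRI 2 (−40.6) lay apart from MIRI 1 (57.3) and MIRI 3 (77.6). GXNI 3 (88.0) lay apart from GXNI 1 (−40.4) and GXNI 2 (16.6). For this position within their own label, the labels of MIRI 2 and GXNI 3 are in doubt and may have been exchanged, which was not tested. MIRI 2 and GXNI 3 are used here for the libraries so labelled, and if the labels were exchanged, every MIRI or GXNI value below would describe another set of mice. The summed neutrophil markers were likewise highest in MIRI 1, MIRI 3 and GXNI 3, though not in the order of the first component. They had 25.4 to 51.2 CPM in sham (reads scaled by the library size and its TMM factor), 617, 23.7 and 500 CPM in MIRI 1 to 3 and 41.9, 180 and 559 CPM in GXNI 1 to 3. The summed cardiomyocyte markers were 55988 to 59216 CPM in sham, 59137 CPM in MIRI 2 and 35229 to 49829 CPM in the other 5 injured hearts. The members of that list did not move alike. In MIRI 2, Actc1 was above sham, with 148618 reads against 76706 to 103287. Atp2a2 (205305 against 253625 to 283368 reads) and Mybpc3 (27038 against 42548 to 43427) were below sham there. All injured hearts were therefore also compared as 1 group of 6 with sham, which does not depend on the MIRI and GXNI labels, and values without MIRI 2 and GXNI 3 are given where they change a result.

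Snhg11 lies on chr2:158375638-158386145 on the forward strand (GRCm38, GENCODE M21), where the annotation gives it the type protein_coding, with 8521 exon bases. It was counted with 3, 1 and 4 reads in the sham hearts, with 28, 33 and 40 reads in the MIRI hearts and with 34, 41 and 16 reads in the GXNI hearts. Every injured heart was above every sham heart. The part of the cell makeup in these values was not tested. Mean levels were 0.141 CPM ± 0.0836 in sham (SD, n = 3), 1.66 CPM ± 0.327 in MIRI and 1.55 CPM ± 0.561 in GXNI.

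**Figure D1:**
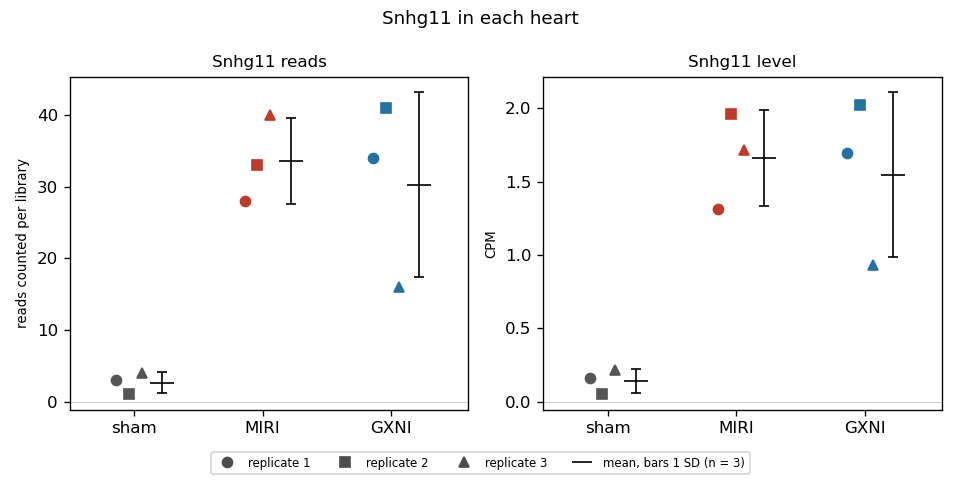
Snhg11 in each heart as reads counted per library (left) and as CPM scaled by the library total and TMM factor (right), with the mean and 1 SD of 3 mice beside the points. The sham hearts held 1 to 4 reads and the injured hearts 16 to 41.

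The 192 reads of the 6 injured hearts against 8 in sham gave a ratio per effective library size of 11.6. This ratio describes the values that led to the choice. The fitted log2 difference was 3.46 over all injured hearts, 3.52 in MIRI and 3.42 in GXNI, and these comparisons share the sham hearts. Over all genes tested, 8.40% were likewise higher in every injured heart than in every sham heart. Without MIRI 2 and GXNI 3 the log2 difference was 3.54. Between GXNI and MIRI, which the choice of Snhg11 did not use, the log2 difference was −0.09 (SE 0.39, 95% interval −1.02 to 0.85, adjusted p = 1 by the edgeR quasi-likelihood test), and the hearts overlapped. Snhg11 passed the filter on low counts through the injured hearts, and at 0.0166 CPM per kb of exon it was the lowest of the members in sham.

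The 5 genes whose log2 CPM was most like that of Snhg11 over the 9 hearts were 2310022B05Rik (Pearson's r = 0.96), Hgsnat (0.95), which encodes a lysosomal acetyltransferase, Fkbp10 (0.95), which encodes a collagen chaperone, Jup (0.95), which encodes plakoglobin of cell junctions, and Gm47950 (0.94). They share libraries and depth with Snhg11, and the values are a description. 2310022B05Rik had 1239 to 1314 reads in sham and 1771 to 3092 reads in the injured hearts, and Fkbp10 had 460 to 478 and 601 to 1083 reads. Hgsnat and Jup overlapped in reads, with 396 to 427 and 413 to 654 reads for Hgsnat.

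Snhg1, on chr19:8723475-8726443, was counted with 158, 134 and 117 reads in sham, 324, 88 and 419 reads in MIRI and 126, 139 and 387 reads in GXNI. MIRI 1, MIRI 3 and GXNI 3 were above all other hearts, MIRI 2 was the lowest of the 9, and GXNI 1 and GXNI 2 lay within the sham range. Snhg12, on chr4:132308623-132311024, had 133, 87 and 85 reads in sham, 150, 36 and 228 reads in MIRI and 89, 93 and 256 reads in GXNI. Its highest hearts were GXNI 3 and MIRI 3 and its lowest was MIRI 2. Snhg15, on the reverse strand of chr11:6525591-6528760, had 17, 33 and 23 reads in sham, 108, 20 and 203 reads in MIRI and 21, 59 and 136 reads in GXNI. Gas5, on chr1:161034422-161038539, had 371, 510 and 370 reads in sham, 967, 301 and 851 reads in MIRI and 485, 574 and 1011 reads in GXNI. For both genes MIRI 1, MIRI 3 and GXNI 3 were again the highest, the libraries with the most neutrophil marker RNA and the least cardiomyocyte marker RNA. In bulk tissue, fewer cells of a type and less RNA per cell cannot be told apart, and the part of the cell makeup in these values was not tested.

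**Figure D2:**
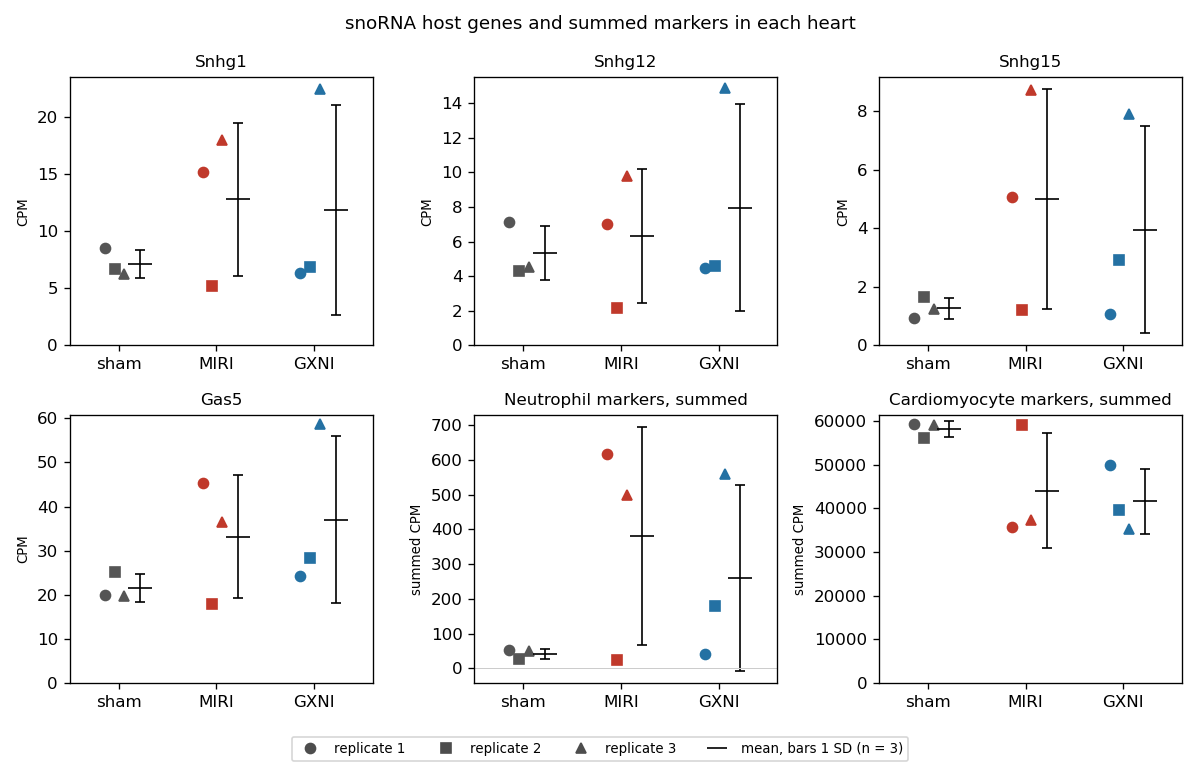
Levels in CPM of Snhg1, Snhg12, Snhg15 and Gas5 in each heart, with the summed CPM of the neutrophil and cardiomyocyte marker lists. Bars give the mean and 1 SD of 3 mice. MIRI 1, MIRI 3 and GXNI 3 are high in Snhg1, Snhg15, Gas5 and the neutrophil markers, while MIRI 2 and GXNI 1 are at or below sham levels. For Snhg12, MIRI 1 at 7.02 CPM lies below sham 1 at 7.14 CPM.

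Calls needed a change of 1.5 times or more in either direction together with a p no higher than 0.01 before adjustment. In all injured hearts against sham, 5.52% of the 15207 genes tested were called higher and 2.85% lower, and 0 of the 9 members other than Snhg11 were called by edgeR. At an unadjusted p under 0.05 there were 3, where 29.5% of all genes were. DESeq2 called 2, Snhg15 and H19. Snhg15 differed by 1.82 on the log2 scale (SE 0.72, 95% interval 0.22 to 3.43, adjusted p = 0.134), Snhg1 by 0.79 (SE 0.48, adjusted p = 0.277), Gas5 by 0.70 (SE 0.34, adjusted p = 0.194) and Snhg12 by 0.42 (SE 0.52, adjusted p = 0.584). The groups overlapped for each of them. The 9 members had a median log2 difference of 0.42, where all genes had 0.01.

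In MIRI against sham, with 6.15% of genes called higher and 2.82% lower, 1 of the 9 members was called. edgeR called none of the 4 host genes, with log2 differences of 2.0 for Snhg15 (SE 0.67, adjusted p = 0.124), 0.86 for Snhg1 (SE 0.43), 0.63 for Gas5 (SE 0.33) and 0.26 for Snhg12 (SE 0.52). DESeq2 and edgeR without the filter on low counts each called Snhg15, H19 and Mhrt. At an unadjusted p under 0.05 edgeR had 4 of the 9, against 28.3% of all genes. Leaving out MIRI 2 changed these results. Without it, 16.9% of all genes were called higher and 13.3% lower, and 6 of the 9 members were called. Of the host genes, Snhg15 then rose by 2.45 (SE 0.34, adjusted p = 0.00142), Snhg1 by 1.22 (SE 0.18, adjusted p = 0.00187) and Gas5 by 0.92 (SE 0.15, adjusted p = 0.00318), and Snhg12 had 0.66 (SE 0.27, adjusted p = 0.0855). MIRI 2 was left out for where it lay among these same libraries, so the spread of the 2 remaining MIRI hearts is smaller by that choice and the p-values are too small.

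In GXNI against sham, 2.67% of genes were called higher and 1.54% lower, and 0 of the 9 members were called by edgeR, with 1 at an unadjusted p under 0.05, where 19.8% of all genes were, and 1 called by DESeq2, both times H19. The log2 differences were 1.65 for Snhg15 (SE 0.70, adjusted p = 0.254), 0.79 for Gas5 (SE 0.35, adjusted p = 0.259), 0.75 for Snhg1 and 0.59 for Snhg12. In GXNI against MIRI, 0% of 14762 genes were called higher and 0.0203% lower, 47 genes had an unadjusted p under 0.05 by edgeR, and 0 of the 9 members were called by edgeR or DESeq2, with 0 at an unadjusted p under 0.05. The intervals of the difference were wide, from −2.42 to 1.75 for Snhg15, −1.62 to 1.42 for Snhg1, −1.28 to 1.96 for Snhg12 and −0.91 to 1.24 for Gas5. Without MIRI 2 and GXNI 3, 1.52% of genes were called higher in GXNI and 3.47% lower. Snhg1 was then called lower, at −1.32 (SE 0.21, adjusted p = 0.182), while Snhg12 (−0.88), Snhg15 (−1.78) and Gas5 (−0.63) were not called. The libraries left out were the lowest and the highest heart for Snhg1, Snhg12 and Gas5, MIRI 2 at 5.22 and GXNI 3 at 22.5 CPM for Snhg1, and were left out with these values known, so the direction depends on that choice.

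**Figure D3:**
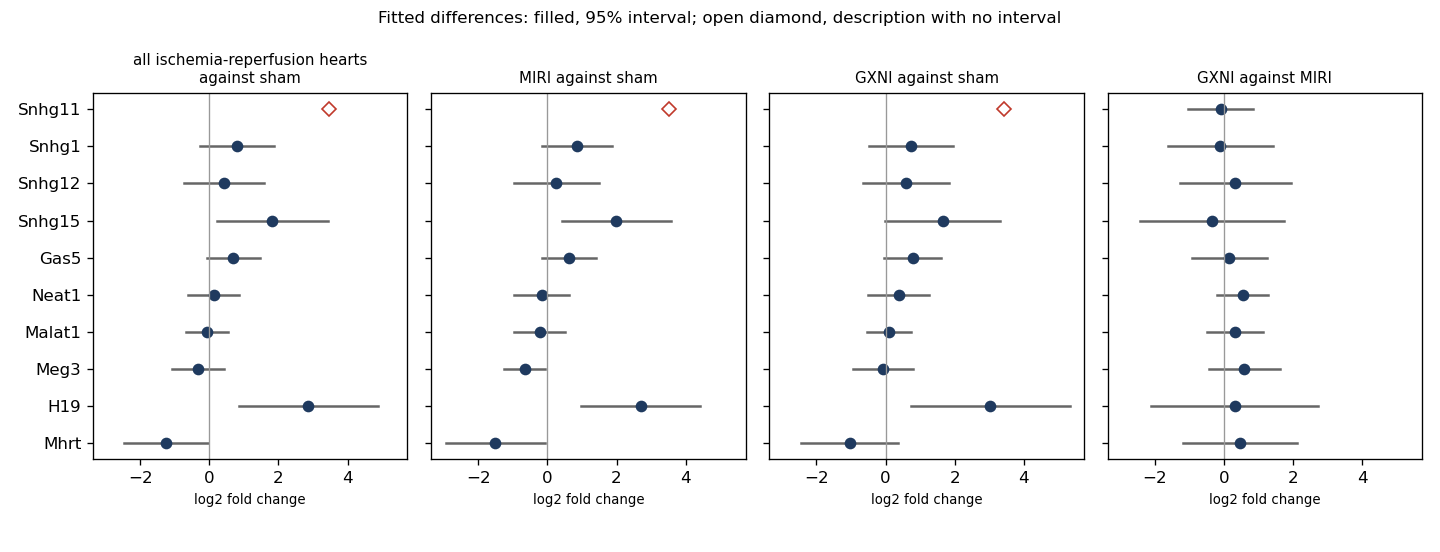
Fitted log2 fold changes of the 10 members in the 4 comparisons, with 95% intervals as lines. Open diamonds are Snhg11 against sham, 3.42 to 3.52, which has no interval because its values led to the choice. In GXNI against MIRI every interval spans 0.

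The annotation places 10 snoRNAs in Gas5, 8 in Snhg1, 5 in Snhg12, 1 in Snhg15 and 2 in Snhg11, and the table lists all of them at 0 reads in the 9 libraries. All but 1 lie in annotated exons of the host on the same strand. Reads in bases shared by genes may be left out by the counting, whose setting for them is not given in the sources used here, so a 0 says nothing of the snoRNA levels. Of 16 other host genes listed, 10 were tested, and edgeR called 0 in any of the 4 comparisons. Over all injured hearts their median log2 difference was 0.28, with 3 at an unadjusted p under 0.05 (29.5% of all genes). Without MIRI 2, 3 of the 10 were called higher in MIRI against sham, where 16.9% of all genes were. They were Snhg5 (1.66), Snhg17 (1.66) and Snhg6 (0.94). Of 12 proteins that assemble or form snoRNA particles, 1 was called higher in all injured hearts, Nop58 (1.64, SE 0.46, adjusted p = 0.0875). Of all genes, 5.52% were called higher there. The list median was 0.83, and 9 had an unadjusted p under 0.05 (29.5% of all genes). In MIRI against sham 5 of the 12 were called higher, where 6.15% of all genes were. They were Nop58 (1.70), Nhp2 (1.26), Nop56 (1.10), Nolc1 (1.05) and Fbl (1.03), which encodes the methyltransferase of box C/D particles. In that comparison 10 of the 12 had an unadjusted p under 0.05 (28.3% of all genes). Without MIRI 2, 10 of the 12 were called higher, where 16.9% of all genes were. Of 10 nonsense-mediated decay factors, edgeR called 0 in any of these comparisons, with 2 at an unadjusted p under 0.05 over all injured hearts (29.5% of all genes).

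Some members have a neighbor on the opposite strand. Slc3a2, which encodes the heavy chain of amino acid transporters, starts 106 bases from Snhg1. It was counted with 1029, 808 and 876 reads in sham, 2490, 1130 and 3297 in MIRI and 1501, 1830 and 2700 in GXNI. Slc3a2 rose in all injured hearts (1.19, SE 0.29, adjusted p = 0.0852), and unlike Snhg1 it was above the sham range of reads in MIRI 2, GXNI 1 and GXNI 2. Zbtb37, which starts 427 bases from Gas5, had a log2 difference of 0.01 (SE 0.25). Frmd8os, 145 bases from Neat1, had at most 8 reads in any library.

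Neat1, on chr19:5824708-5845478, was counted with 20650, 9430 and 17690 reads in sham, 19131, 12635 and 13760 reads in MIRI and 26595, 24970 and 12004 reads in GXNI. Malat1, its neighbor on chr19:5795690-5802672, had 19097, 12400 and 17250 reads in sham, 19363, 13768 and 10597 reads in MIRI and 22808, 19062 and 11145 reads in GXNI. Sham 2 was the lowest heart of its group for both genes, and for Neat1 of all 9, and the SD of Neat1 was 333 CPM in sham against 153 CPM in MIRI and 340 CPM in GXNI. Per kb of exon these were the most abundant members in sham, Malat1 at 122 CPM and Neat1 at 40.4 CPM, followed by Mhrt at 25.6 CPM, Gas5 at 5.75, Snhg1 at 2.40, Snhg12 at 2.22, H19 at 1.94, Snhg15 at 0.925 and Meg3 at 0.651. In this order Neat1 and Mhrt overlapped between sham hearts, as did Snhg1, Snhg12 and H19, then H19 and Snhg15, and Snhg15 and Meg3.

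Over all injured hearts the log2 difference was 0.12 for Neat1 (SE 0.32, 95% interval −0.60 to 0.85) and −0.06 for Malat1 (SE 0.27, −0.67 to 0.55). In GXNI against MIRI it was 0.55 for Neat1 (SE 0.31, adjusted p = 1) and 0.33 for Malat1 (SE 0.34). Of 12 paraspeckle proteins, Zc3h6 fell by 0.66 in all injured hearts (SE 0.18, adjusted p = 0.0875) and none other was called. Of all genes, 2.85% were called lower there. By edgeR 5 of the 12 had an unadjusted p under 0.05 (29.5% of all genes). Of 10 nuclear speckle proteins, edgeR called 0 in all injured hearts, with 3 at an unadjusted p under 0.05 (29.5% of all genes). Rnps1 rose by 0.65 in MIRI against sham (SE 0.16, adjusted p = 0.0865), where 6.15% of all genes were called higher. The genes most like Neat1 over the 9 hearts were Safb (r = 0.93), which encodes a nuclear matrix protein, Rfx1 (0.93), which encodes a transcription factor, and Gm9967 (0.93). Rn7sk, a nuclear RNA without a poly(A) tail, had 113, 18 and 82 reads in sham, so sham 2 was also lowest there. It had 22, 60 and 66 reads in MIRI and 53, 58 and 38 reads in GXNI. MIRI 1 was thus the lowest MIRI heart for Rn7sk and the highest MIRI heart for Neat1 and Malat1. Whether a property of the libraries has a part in the Neat1 and Malat1 values was not tested.

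**Figure D4:**
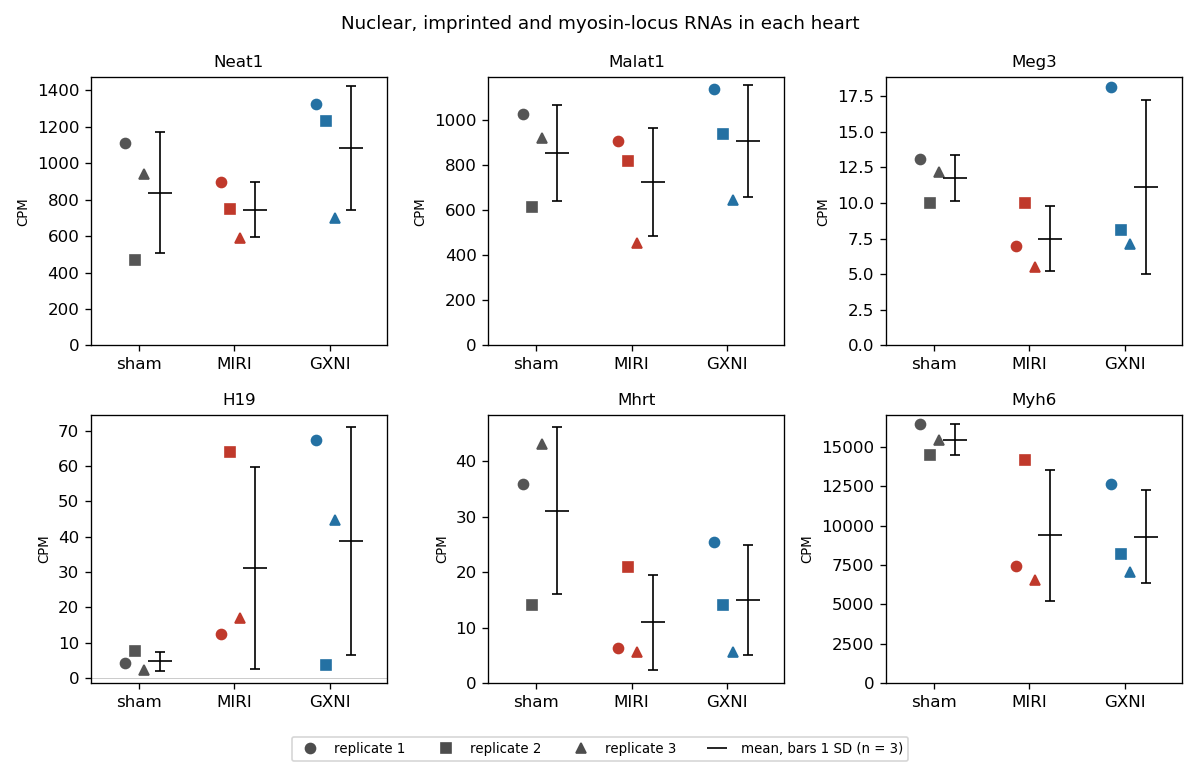
Levels in CPM of Neat1, Malat1, Meg3, H19, Mhrt and the myosin gene Myh6 in each heart, with the mean and 1 SD of 3 mice. H19 is highest in GXNI 1 and MIRI 2, and Mhrt is lowest in MIRI 1, MIRI 3 and GXNI 3.

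H19, on chr7:142575529-142578143, was the member called in MIRI against sham. It was counted with 80, 156 and 43 reads in sham, 264, 1076 and 397 reads in MIRI and 1351, 77 and 772 reads in GXNI. All MIRI hearts were above all sham hearts, as for 17.4% of the genes tested, while GXNI 2 lay within the sham range. The highest levels were 67.5 CPM in GXNI 1 and 63.9 CPM in MIRI 2, the hearts nearest to sham in other genes. GXNI 1 also had the most mesothelial marker RNA, 76.1 CPM. MIRI 2 had the most reads of the atrial markers Dkk3 (250, against 14 to 67 elsewhere), Myl4, Myl7 and Sln, though not of Nppa and Stard10. It also had the most of the adipocyte markers Plin1 (28, against 0 to 6) and Cidec (29, against 0 to 5), while Fabp4 was lowest there. The part of the tissue sampled in the H19 values was not tested. H19 rose by 2.70 in MIRI against sham (SE 0.73, 95% interval 0.98 to 4.42, adjusted p = 0.0955), a mean of 31.1 CPM ± 28.5 against 4.77 CPM ± 2.75 (SD, n = 3). The call was lost without sham 1 (2.62) or sham 3 (2.36), and without MIRI 2 it was kept at 1.62 (SE 0.42, adjusted p = 0.0176). Over all injured hearts the log2 difference was 2.86 (SE 0.90, 95% interval 0.85 to 4.88, adjusted p = 0.10), with an unadjusted p of 0.01005 just outside the threshold, and against sham GXNI had 3.02 (SE 0.97, adjusted p = 0.223). In GXNI against MIRI the difference was 0.32 (SE 1.01). Mir675, which lies in an exon of H19, was listed at 0 reads in every library, with the same limit as for the snoRNAs. Of 10 genes in the imprinted network that H19 belongs to, edgeR called 0 over all injured hearts, with 3 at an unadjusted p under 0.05 (29.5% of all genes). Plagl1, a transcription factor of that network, rose by 0.99 in MIRI against sham (SE 0.24, adjusted p = 0.0841), where 6.15% of all genes were called higher.

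Meg3, on chr12:109541001-109571726, was counted with 244, 202 and 229 reads in sham, 149, 168 and 128 reads in MIRI and 364, 165 and 123 reads in GXNI. The MIRI hearts were all below the sham hearts, though MIRI 2 at 9.975 CPM and sham 2 at 10.001 CPM were nearly equal, and 16.2% of genes tested had all MIRI hearts below all sham hearts. The log2 difference of −0.65 in MIRI against sham (SE 0.25, adjusted p = 0.151) was not called, and without MIRI 2 Meg3 fell by 0.91 (SE 0.19, adjusted p = 0.00804). GXNI 1 was the highest of all hearts at 18.2 CPM. GXNI 1 also had the most mesothelial marker RNA, 76.1 CPM against 8.94 to 25.1 CPM in the other libraries. Of 7 genes of the imprinted Dlk1-Dio3 region, 2 were tested and edgeR called 0 in the 4 comparisons, with 0 at an unadjusted p under 0.05.

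Mhrt, on the forward strand of chr14:54968678-54974349, shares 484 of its 1214 exon bases with Myh7 on the opposite strand, and since the strand setting of the counting is not given in the sources used here, reads of the pair cannot be told apart there. It was counted with 670, 286 and 810 reads in sham, 135, 352 and 133 reads in MIRI and 510, 286 and 98 reads in GXNI. MIRI 1, MIRI 3 and GXNI 3 were the lowest, at 5.69 to 6.32 CPM, and sham 2 at 14.2 CPM lay below MIRI 2 at 20.9 CPM and GXNI 1 at 25.5 CPM. The log2 difference was −1.26 over all injured hearts (SE 0.54, 95% interval −2.46 to −0.05, adjusted p = 0.157) and −1.51 in MIRI against sham (SE 0.61, adjusted p = 0.163), neither called by edgeR, though DESeq2 and edgeR without the filter on low counts called the latter. Without MIRI 2 Mhrt fell by 2.37 in MIRI against sham (SE 0.45, adjusted p = 0.00539), and without MIRI 2 and GXNI 3 it was 1.73 higher in GXNI than in MIRI (SE 0.33, adjusted p = 0.188) and called. Over all injured hearts without those libraries, with 6.60% of genes called higher and 3.24% lower, edgeR called 0 of the 9 members, with 3 at an unadjusted p under 0.05, where 31.0% of all genes were.

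Of 7 myosin genes and Mhrt partners, Myh7b, a myosin gene that hosts a muscle microRNA, fell by 1.93 in all injured hearts (SE 0.34, adjusted p = 0.0573), from 42.6 to 55.5 CPM in sham to 7.12, 16.1 and 7.46 CPM in MIRI and 24.4, 11.9 and 10.6 CPM in GXNI. By edgeR 1 of the 7 was called lower there, where 2.85% of all genes were. An unadjusted p under 0.05 was found for 3 of the 7 (29.5% of all genes). Myh7, the slow myosin heavy chain, had −0.07 (SE 0.44). Per 1000 reads of Myh7 there were 72.0 to 103 reads of Mhrt in sham, 16.8, 56.8 and 18.9 in MIRI and 106, 149 and 10.8 in GXNI. GXNI 2 had 1924 reads of Myh7, against 3970 to 7838 in sham. Per 1000 reads of Myh6 there were 0.98 to 2.79 reads of Mhrt in sham, 0.85, 1.48 and 0.87 in MIRI and 2.01, 1.72 and 0.81 in GXNI. The genes most like Mhrt over the 9 hearts were Mir208b (r = 0.99), Gm17428 (0.99) and Mir208a (0.99). The annotation places Mir208b (chr14:54975700-54975776) and Gm17428 (chr14:54976933-54977025) within Myh7 and Mir208a (chr14:54949060-54949142) within Myh6, outside the exons of both genes. Mir208b had 332, 73 and 406 reads in sham, 38, 142 and 30 reads in MIRI and 216, 78 and 18 reads in GXNI, so that reads of a 77-base intronic feature moved with Mhrt from heart to heart, sham 2 included. Whether the Mhrt reads come from the Mhrt transcript or from unspliced myosin transcripts cannot be told apart in these counts.

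Over the 9 hearts the members fell into blocks. Snhg1 had r = 0.91 with Snhg12, 0.91 with Gas5 and 0.89 with Snhg15, and Snhg15 had 0.90 with Gas5. Neat1 and Malat1 had 0.87 and Meg3 and Mhrt had 0.86, while Mhrt and Snhg15 had −0.94. Snhg11 had values between −0.42 and 0.56 with the other members, 0.21 with Snhg1. These are descriptions over 9 libraries that share 3 groups and differ in cell markers, and they carry no test.

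**Figure D5:**
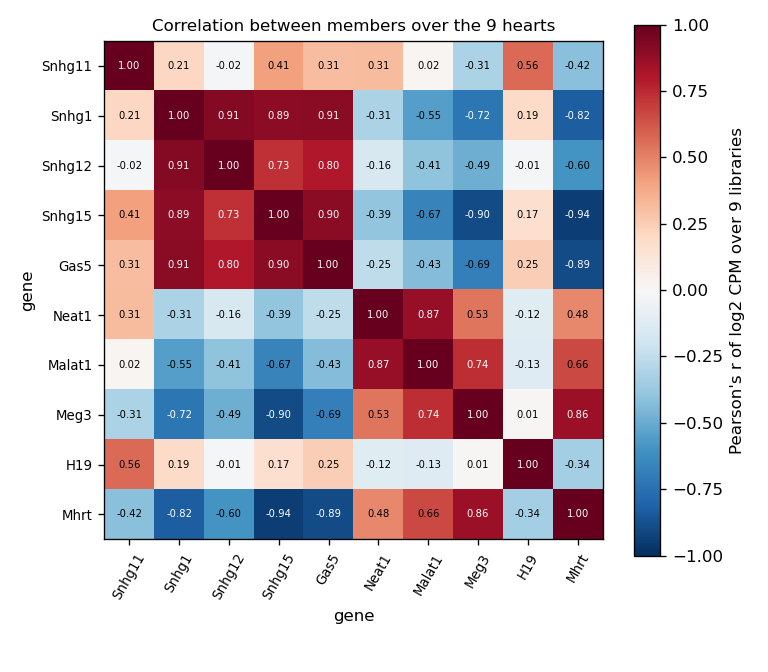
Pearson's r of log2 CPM between the 10 members over the 9 hearts, from −1 in blue to 1 in red. Snhg1, Snhg12, Snhg15 and Gas5 form a block at 0.73 to 0.91, which Snhg11 does not share.

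Of 23 other named long noncoding RNAs, 13 were tested in all injured hearts and 1 was called, Airn, an imprinted antisense RNA of the Igf2r locus. Airn rose by 0.81 (SE 0.22, adjusted p = 0.0875) and by 0.99 in GXNI against sham (SE 0.15, adjusted p = 0.210). Of all genes, 5.52% and 2.67% were called higher in these 2 comparisons. Without MIRI 2, 12 were tested in MIRI against sham. Pvt1 (1.58), Mir22hg (1.43) and Mir17hg (1.41) were called higher and Hand2os1 (−1.20) lower. In that fit 16.9% of all genes were called higher and 13.3% lower, so these calls are near the share of all genes.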

How the data were processed

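Heart RNA of 9 mice was sequenced, and the deposited values are counts of reads per gene, whole numbers that the authors made from cleaned reads with HISAT2 (genome build mm10 per the labels) and featureCounts. Versions, annotation release and strand setting are not given in the sources used here. Genes were named with GENCODE M21 (54409 of 54532 identifiers) and 0 columns of other samples were used. Groups follow the deposited labels.

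Each comparison was fitted on its own libraries with edgeR 4.0.16 in R 4.3.3 (TMM, default filter on low counts, quasi-likelihood F test, no covariates), with Benjamini-Hochberg adjustment over all genes tested. CPM values use TMM factors over the 9 libraries. Alternatives are given in the closing section, and the fits were tested on simulated counts. Members and gene lists were chosen with earlier results of these data known. Named genes are the members, the called genes of each list, opposite-strand neighbors and the genes most like Snhg11, Neat1 and Mhrt. Genes of the lists called only without MIRI 2 were named after their values were seen. Each group had 3 mice, and same-numbered mice are different animals.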

Additional observations from a re-analysis of the deposited data

How the results depend on the processing

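Depth limits Snhg11 most, with 1 to 4 reads per sham heart. Of the 9 other members, all injured hearts against sham called 2 with DESeq2 1.42.0, 1 with RLE normalization and 1 without the filter on low counts, against 0, and 0 to 1 when replicates were left out, in each case Snhg15 or H19. MIRI against sham called 3 with DESeq2, 3 without the filter, 0 by adjusted p and 0 with all 9 libraries in 1 fit, against 1, and 0 to 6 when replicates were left out, MIRI 2 giving the 6 and sham 1 or sham 3 the 0. GXNI against sham called 1 with DESeq2, 1 without the filter and 0 to 1 when replicates were left out, against 0, and GXNI against MIRI 0 to 2, the 2 only without both MIRI 2 and GXNI 3. The cause was not tested. Leaving out mitochondrial genes changed none of the 4 counts.

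The replicate numbers did not pair the mice, since correlations of same-numbered deviations ran from −0.46 to 0.73. With the replicate number as a block, the members called were 0, 1, 0 and 0 in all injured hearts against sham, MIRI against sham, GXNI against MIRI and GXNI against sham, as without it.

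Counts of all genes called moved by over 1.5 times. All injured hearts against sham called 840 higher and 434 lower, 1519 and 677 with DESeq2, 656 lower without the filter, 4 and 5 by adjusted p, and from 254 (without sham 2) to 1466 higher (without MIRI 2) and from 209 (without sham 2) to 858 lower (without GXNI 1) when 1 replicate was left out. MIRI against sham called 900 and 413, 1491 and 760 with DESeq2, 1603 and 803 without the filter, 535 and 265 with all 9 libraries in 1 fit, 2 and 0 by adjusted p, and from 340 and 174 without sham 2 to 2571 and 2021 without MIRI 2. GXNI against sham called 2.67% and 1.54% of genes, or 994 and 407 with DESeq2, 999 and 426 without the filter, 142 lower with all libraries in 1 fit, 0 and 0 by adjusted p, and from 83 higher without sham 2 and 90 lower without sham 3 to 1603 and 1062 without GXNI 1. GXNI against MIRI called 0 and 3, 4 and 7 with DESeq2, 4 and 6 without the filter, 2 and 1 with the replicate block, 1 and 8 with all libraries in 1 fit, 0 to 8 higher and 0 to 9 lower when 1 replicate was left out, and 228 and 520 without MIRI 2 and GXNI 3.

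Directions turned only where replicates were left out, none of them for a called value. In all injured hearts against sham the log2 difference ran from −0.25 to 0.092 for Malat1 and from −0.17 to 0.38 for Neat1. In MIRI against sham it ran from −0.47 to 0.074 for Neat1, −0.20 to 0.66 for Snhg12 and −0.43 to 0.013 for Malat1. In GXNI against MIRI it ran from −1.32 to 0.21 for Snhg1, −0.36 to 1.41 for H19, −0.32 to 0.31 for Snhg11, −0.88 to 0.79 for Snhg12, −0.63 to 0.46 for Gas5, −1.78 to 0.33 for Snhg15 and −0.14 to 1.73 for Mhrt. In GXNI against sham it ran from −0.61 to 0.16 for Meg3, −0.094 to 0.29 for Malat1, −0.11 to 1.05 for Snhg1 and −0.23 to 0.88 for Snhg12.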
